A study of Mus musculus with 49 samples.

Results

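Secreted antagonists of Wnt signalling and genes of bone-forming cells were followed through arthritis caused in mice by transferred serum. The list held 10 genes: the antagonists Sfrp1, Sfrp2, Sfrp4, Frzb and Wif1, and the osteoblast genes Alpl, Ibsp, Spp1, Runx2 and Phex. A gene was taken as measured where at least 1 probe set of the array was annotated to its symbol alone. This held for 7 of the 10 (4 antagonists and 3 osteoblast genes), among 8251 genes in all, while Wif1, Spp1 and Runx2 were not analysed here. A gene with several probe sets was represented by the one with the highest mean over all 49 arrays. This choice of probe set used no difference between days, whereas the 10 genes were chosen with earlier results of these data known.

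Autoantibodies in the serum of K/BxN mice cause joint inflammation when that serum is given to healthy mice. All samples came from male mice of B6 background, 6 weeks of age, and the labels name no gene alteration or other treatment. Days count from the first serum injection. Whole ankle gave 4 arrays on each of days 0 and 7, 3 on each of days 3, 12 and 18, and 2 on day 1. Synovial fluid cells gave 4 arrays on day 7 and 3 on each of days 3, 12 and 18, and blood leukocytes gave 2 on day 18 and 3 on each of days 0, 1, 3, 7 and 12. A whole ankle mixes bone, marrow, cartilage, tendon, synovium, muscle and skin, and in such bulk samples fewer cells of a type and less RNA per cell cannot be told apart. Preparation differed between the tissues and, within fluid and blood, between some samples, so that tissue and preparation cannot be told apart in comparisons between tissues. The labels speak of biological replicates for blood alone, and elsewhere a p-value measures the spread between samples, which may be technical.

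Wnt proteins signal through Frizzled receptors and the coreceptors Lrp5 and Lrp6, which stabilises beta-catenin and turns on genes with TCF and LEF factors. In bone this pathway drives osteoblast differentiation. The Sfrp proteins and Frzb, which is also called Sfrp3, carry a domain like that of the receptors and bind Wnt outside the cell, while Dkk proteins block the coreceptors. Alpl encodes the alkaline phosphatase that allows bone mineral to form, Ibsp encodes bone sialoprotein, a matrix protein of mineralised tissue, and Phex encodes a membrane peptidase of osteoblasts and osteocytes whose loss raises the phosphate hormone Fgf23.

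The 250 bases before the annotated transcription start are shown for Sfrp2, the antagonist that rose in ankle, and for Ibsp, the osteoblast gene whose probe sets disagreed. Both sequences are from RefSeq, build GRCm38.p6, plus strand, written 5′ to 3′ with motif matches in capitals. The windows are chr3:83766071-83766320 for Sfrp2 and chr5:104299037-104299286 for Ibsp, and the RefSeq gene model of Sfrp2 also has an earlier start, inside which its window lies.
Sfrp2: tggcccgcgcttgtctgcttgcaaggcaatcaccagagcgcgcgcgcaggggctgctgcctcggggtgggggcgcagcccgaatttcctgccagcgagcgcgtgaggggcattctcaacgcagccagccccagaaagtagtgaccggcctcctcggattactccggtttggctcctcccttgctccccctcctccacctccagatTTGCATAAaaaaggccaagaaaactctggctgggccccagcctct
Ibsp: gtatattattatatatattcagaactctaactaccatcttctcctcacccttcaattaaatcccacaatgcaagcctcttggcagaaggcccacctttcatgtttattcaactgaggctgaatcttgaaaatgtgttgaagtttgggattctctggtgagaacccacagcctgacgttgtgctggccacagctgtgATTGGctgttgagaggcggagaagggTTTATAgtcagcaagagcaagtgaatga
Both strands were searched for the TATA box TATAAA, the CCAAT box CCAAT, the C/EBP motif TTGCNNAA, the AP-1 motif TGANTCA, the Runx motif TGTGGT and the TCF/LEF motif CTTTGAA. Sfrp2 held 1 match, to the C/EBP motif on the printed strand, which begins at position -45 from the start. Ibsp held a TATA box at -28 and a CCAAT box at -54, both on the opposite strand and therefore printed as TTTATA and ATTGG. No matches overlapped in these windows, and neither window held the AP-1, Runx or TCF/LEF letters. Of 32851 promoter windows of this length, 12.4% held the TATA letters, 33.8% the CCAAT letters, 9.6% those of C/EBP, 6.7% those of AP-1, 14.0% those of Runx and 4.5% those of TCF/LEF. GC content was 63.6% for Sfrp2 and 43.6% for Ibsp, against a median of 52.4% over all windows. The matches describe the letters only.

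Levels are log2 intensities, and differences are given on the log2 scale ± SE with n as the number of arrays per day above. The 95th percentile of 34 negative control probe sets was 6.85, and a fold is given only where both means exceeded it. Where a mean lay below it, the true difference may be larger than the one measured. Array medians lay between 57.7 and 64.1 intensity units and replicates correlated at 0.941 to 0.995 across probe sets. In day 0 ankle 10 of 14 muscle markers and 7 of 13 fibroblast markers had a mean above the negative control level, and in day 0 blood 9 of 15 neutrophil markers did. Alb, the albumin gene of liver, was above 6 in 4 ankle arrays (replicate 1 of days 0, 1, 7 and 12) and at most 5.19 in the other 15. The log2 ratio of 3′ to 5′ beta-actin probe sets, a sign of RNA quality, ran from 2.73 to 3.50 at day 0 and from 3.15 to 4.25 in the later ankle arrays.

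Sfrp4 and Sfrp2 moved in opposite directions in the inflamed ankle. Sfrp4 was lower at day 7 and was back in its starting range at day 18. Sfrp2 was higher at days 7 and 12. The other 5 measured genes gave 0 calls in ankle at any day, and for all of them every ankle array lay below the negative control level.

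**Figure D1:**
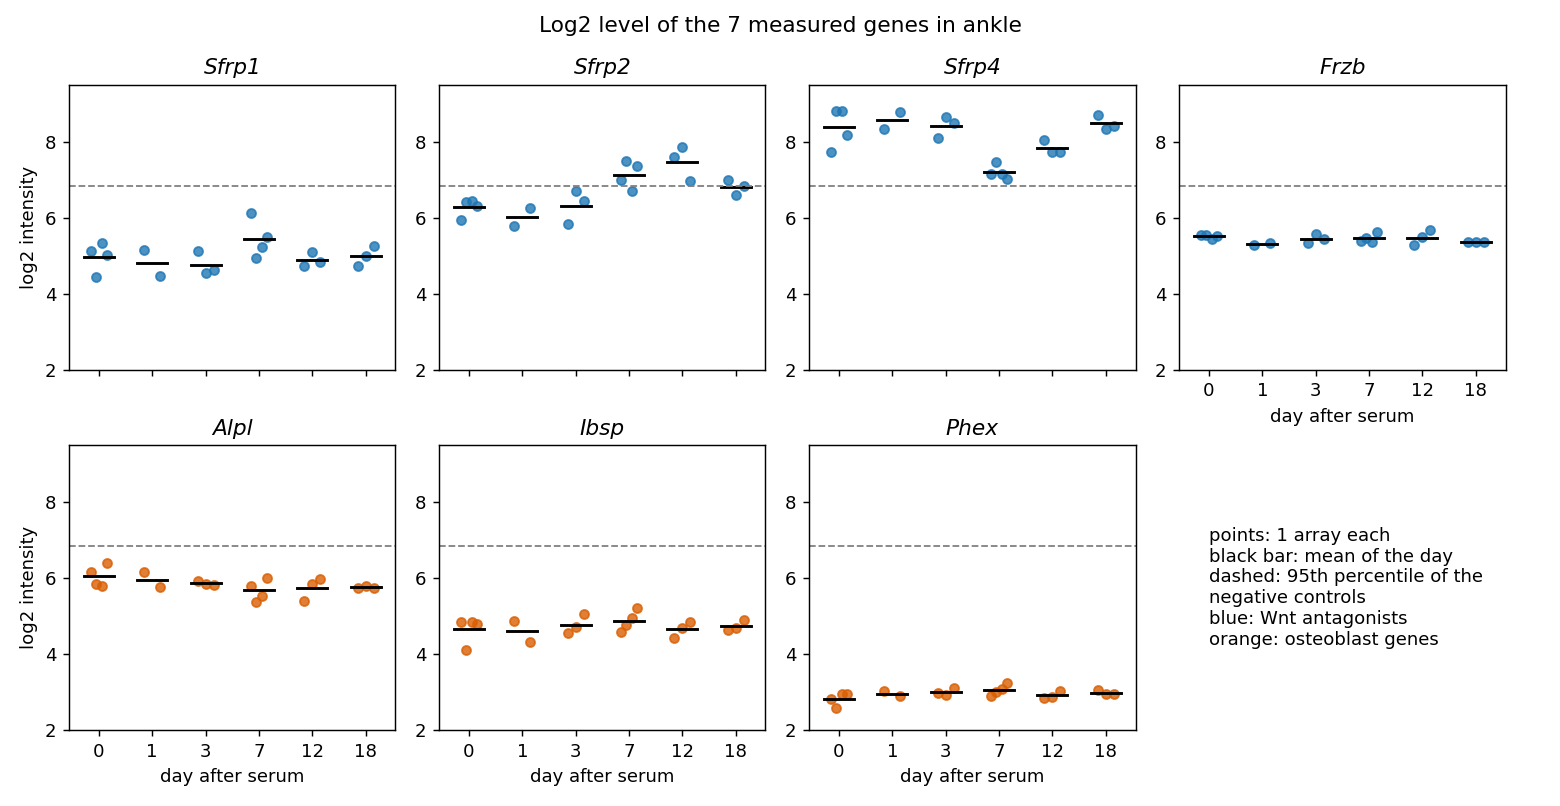
Log2 intensity (vertical axis) of the 7 measured genes in each ankle array against day after serum (horizontal axis), with the mean of each day as a black bar and the 95th percentile of negative controls (6.85) as a dashed line; blue marks antagonists and orange osteoblast genes. Sfrp4 lies above the line throughout and dips at day 7, and the other 5 genes stay below it. Sfrp2 lies above it in 3 of 4 arrays at day 7, 3 of 3 at day 12 and 1 of 3 at day 18.

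Sfrp4 was the antagonist read most clearly, with all 19 ankle arrays above the negative control level. Its log2 levels were 7.73, 8.83, 8.80 and 8.18 before serum, 8.35 and 8.80 on day 1, and 8.10, 8.65 and 8.50 on day 3. At day 7 the 4 arrays read 7.15, 7.46, 7.15 and 7.02. All 4 lay under every array of days 0, 1 and 3. At day 12 the levels were 8.06, 7.74 and 7.73, and at day 18 they were 8.70, 8.35 and 8.43. The day 12 arrays lay above all of day 7, with 2 of the 3 inside the range of day 0. The low end of that range was replicate 1, an array with high Alb. All 3 day 12 arrays lay under the other day 0 arrays. The day 18 arrays lay wholly inside the day 0 range.

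Sfrp4 at day 7 was 2.28-fold lower than at day 0, a log2 difference of -1.19 ± 0.21 (adjusted p = 0.00196). Over all genes, 6.73% were called at day 7 in either direction and 3.64% were called lower. At day 12 the difference was -0.54 ± 0.23 and did not pass (adjusted p = 0.260), but without the 4 arrays with high Alb it was -0.87 and passed (adjusted p = 0.0417). At day 18 it was 0.11 ± 0.23 (adjusted p = 0.936, 95% interval -0.38 to 0.59). Between day 7 and day 18 Sfrp4 rose 2.46-fold, by 1.3 ± 0.23 (adjusted p = 0.0456), in a comparison in which 0.0606% of genes, 5 in all, passed. This rise kept a size of 1.19 to 1.38 when any 1 ankle array was left out, but the call was lost in 15 of those 19 fits, with adjusted p up to 0.570 without day 18 replicate 1. It held without day 0 replicate 1, 2 or 3 or day 3 replicate 1, and was lost after median centring (adjusted p = 0.0764) and with a floor on low values (adjusted p = 0.152). The F test over all days passed for Sfrp4 (adjusted p = 0.00505), and 3.62% of genes passed it.

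Sfrp2 started below the negative control level. Its day 0 arrays read 5.95, 6.41, 6.44 and 6.31, those of day 1 read 5.78 and 6.26, and those of day 3 read 5.83, 6.70 and 6.44. Blood read 5.40 to 5.92 with the same probe set. At day 7 the levels were 6.99, 7.51, 6.70 and 7.35, at day 12 they were 7.59, 7.86 and 6.97, and at day 18 they were 6.99, 6.61 and 6.83. Every array of days 7, 12 and 18 was above every array of day 0. Day 3 overlapped day 7 by 1 array, at 6.70 in both.

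Sfrp2 rose by 0.86 ± 0.23 at day 7 (adjusted p = 0.0265), where 3.09% of genes were called higher. At day 12 it rose by 1.19 ± 0.24 (adjusted p = 0.00900), where 3.24% of genes were called in either direction, 1.87% higher and 1.37% lower. The day 18 difference of 0.53 ± 0.24 did not pass (adjusted p = 0.403), where 2.01% of genes did. The F test over all days passed (adjusted p = 0.0109).

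Both Sfrp2 calls rested on few arrays. Without the arrays with high Alb the day 7 difference was 0.80 (adjusted p = 0.0813) and the day 12 difference 1.03 (adjusted p = 0.0596). With the beta-actin ratio added to the fit they were 0.91 (adjusted p = 0.0973) and 1.26 (adjusted p = 0.0800). Leaving out a single array also ended the day 7 call in 4 cases. These were day 0 replicate 1 (0.75, adjusted p = 0.0771) and replicate 4 (0.87, adjusted p = 0.0623), and day 7 replicate 2 (0.74, adjusted p = 0.0900) and replicate 4 (0.79, adjusted p = 0.0817). The day 12 call ended when its replicate 2 was left out (1.00, adjusted p = 0.0855). In all of these fits the difference stayed positive, between 0.74 and 1.26.

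**Figure D2:**
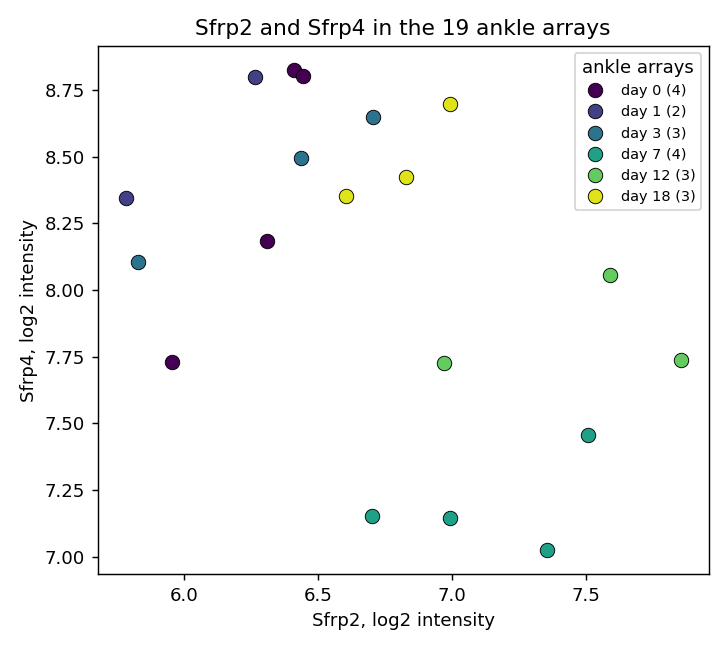
Log2 intensity of Sfrp4 (vertical axis) against Sfrp2 (horizontal axis) in the 19 ankle arrays, 1 point per array, coloured by day. The day 7 arrays lie lowest on the Sfrp4 axis (7.02 to 7.46), the day 12 arrays reach farthest right (6.97 to 7.86), and the day 18 arrays return to the top (8.35 to 8.70) at Sfrp2 levels of 6.61 to 6.99.

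The opposite course of Sfrp2 and Sfrp4 was a difference between days, not between arrays of the same day. Over the 19 ankle arrays their Pearson correlation was -0.42, and after subtraction of each day's mean it was 0.62. Both values are descriptions, since the 2 genes are read from the same RNA of each array, and arrays differ in tissue mix and RNA quality.

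Among all genes, those whose ankle pattern was most like Sfrp2 were Mfap4 (r = 0.884), C1qtnf3 (r = 0.876) and Thbs2 (r = 0.857). Mfap4 encodes a microfibril-associated glycoprotein and Thbs2 a thrombospondin of the extracellular matrix. Within days these correlations were 0.545, 0.690 and 0.525. Those most like Sfrp4 were Hopx (r = 0.873), Cilp2 (r = 0.846) and Smim14 (r = 0.802), with 0.610, 0.303 and 0.885 within days. All are Pearson correlations over the 19 ankle arrays.

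Most measured tendon markers fell at day 7, as Sfrp4 did. Of 7 listed, 4 were measured, and the summed intensity of these was 12835 to 14228 at day 0, 2149 to 4598 at day 7, 4792 to 6037 at day 12 and 4924 to 9408 at day 18. At day 7, 3 of the 4 were called lower, where 3.64% of all genes were. Cilp2 fell by 2.50 ± 0.24 (adjusted p = 2.78e-06), Fmod fell by 1.84 ± 0.29 (adjusted p = 0.000764) and Tnxb fell by 2.44 ± 0.49 (adjusted p = 0.00427). The other, Scx, a transcription factor of tendon cells, differed by 0.26 ± 0.13 (adjusted p = 0.316). Cilp2 and Tnxb, with day 0 means of 12.84 and 11.88, made up most of the tendon sum. Cilp2 was already picked above for its likeness to Sfrp4, so its fall is not a separate observation. At day 18 the summed tendon level was below that of day 0 in every array, and Sfrp4 was within its day 0 range. Of the 4 tendon markers 0 were called at day 18 against day 0 (median difference -0.74), where 2.01% of all genes were. Between day 7 and day 18, 1 of the 4 was called higher, where 0.0606% of all genes were called. Adipocyte markers (7 of 9 measured) summed to 2142 to 3722 at day 0 and 1212 to 2917 at day 7, and muscle markers (14 of 14) to 12240 to 29004 and 5066 to 23799. Erythroid and marrow markers (8 of 13 listed names, of which Igh-6 and Ighm are the same gene) summed to 6547 to 10129 at day 0 and 2087 to 4708 at day 7, without overlap. The globin gene Hba-a1, with a day 0 mean of 12.70, made up most of that sum. Of these 8, 2 were called lower at day 7, beside the same 3.64% of all genes, and 0 higher, and the list's median difference was 0.07. Alas2, the heme synthesis enzyme of red cells, fell by 2.05 ± 0.33 (adjusted p = 0.000850), and Hba-a1 fell by 1.54 ± 0.27 (adjusted p = 0.00172). Neutrophil markers (15 of 15) summed to 1196 to 1414 at day 0 and 3384 to 5523 at day 7, and fibroblast markers (13 of 14) to 11846 to 17104 and 13413 to 17370. At day 7, where 3.09% of all genes were called higher, 4 neutrophil and 3 fibroblast markers were, and 0 of either list were called lower. Their median differences were 0.29 and 0.22. Dcn and Col3a1, with day 0 means of 12.82 and 11.91, made up most of the fibroblast sum. No measured marker was listed at 0. The part of these tissues in the change of Sfrp2 and Sfrp4 was not tested.

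The remaining antagonists were at the edge of detection. Sfrp1 read 5.13, 4.44, 5.33 and 5.01 at day 0 and 6.14, 4.93, 5.24 and 5.50 at day 7. The day 7 arrays overlapped those of day 0 and replicate 1, which had high Alb, stood highest. The difference of 0.47 ± 0.24 did not pass (adjusted p = 0.315). At the other days Sfrp1 read 4.46 to 5.26 in ankle, and 13 of the 19 ankle arrays lay above the highest blood array. Frzb read 5.55, 5.56, 5.45 and 5.52 at day 0 and 5.40, 5.47, 5.37 and 5.62 at day 7, and 0 of 19 ankle arrays exceeded the highest blood array. Its day 7 difference was -0.05 ± 0.10 (adjusted p = 0.857, 95% interval -0.27 to 0.16). With this probe set no level of Frzb above background was found in ankle.

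The osteoblast genes gave no call in ankle. Alpl read 6.16, 5.86, 5.80 and 6.42 at day 0 and 5.79, 5.39, 5.54 and 6.02 at day 7, with 3 of the 4 day 7 arrays under every day 0 array. The difference was -0.38 ± 0.16 and did not pass after adjustment (adjusted p = 0.213). Alpl means at the later days were 5.74 at day 12 and 5.76 at day 18, against 6.06 at day 0. Only 1 of the 19 ankle arrays exceeded the highest blood array. With array weights the day 7 difference was -0.58 (adjusted p = 0.0178) and the day 18 difference -0.39 (adjusted p = 0.0447).

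Phex was the dimmest of the probe sets. It read 2.84, 2.59, 2.96 and 2.96 at day 0 and 2.90, 3.00, 3.08 and 3.23 at day 7, under the negative control median of 4.40. The day 7 difference of 0.22 ± 0.09 did not pass (adjusted p = 0.206), and 0 of 19 ankle arrays exceeded the highest blood array.

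The main probe set of Ibsp read 4.84, 4.13, 4.86 and 4.81 at day 0 and 4.59, 4.78, 4.94 and 5.21 at day 7, a difference of 0.22 ± 0.18 (adjusted p = 0.611). Over all days it ran from 4.13 to 5.21 in ankle, 4.50 to 5.05 in fluid and 4.53 to 5.30 in blood. It did not separate ankle from leukocytes. The other Ibsp probe set had a lower mean and did separate them. It read 3.35 to 5.70 in ankle, 2.70 to 3.70 in fluid and 2.66 to 3.25 in blood, so that all 19 ankle arrays lay above the highest blood array and 17 of 19 above the highest fluid array.

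By this other probe set, chosen for display after its values were seen, Ibsp varied widely between ankles of the same day. Day 0 read 3.98, 5.56, 4.42 and 5.70, day 1 read 3.73 and 5.61, and day 7 read 3.69, 4.86, 5.02 and 4.64. Day 3 read 4.63, 4.31 and 4.19, day 12 read 5.51, 4.55 and 5.0, and day 18 read 4.29, 4.53 and 3.35. No day stood apart from day 0, and none of the differences passed. The difference was -0.36 ± 0.43 at day 7 (adjusted p = 0.759) and -0.86 ± 0.46 at day 18 (adjusted p = 0.516). Against this spread between replicate ankles, changes of that size were not detectable.

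**Figure D3:**
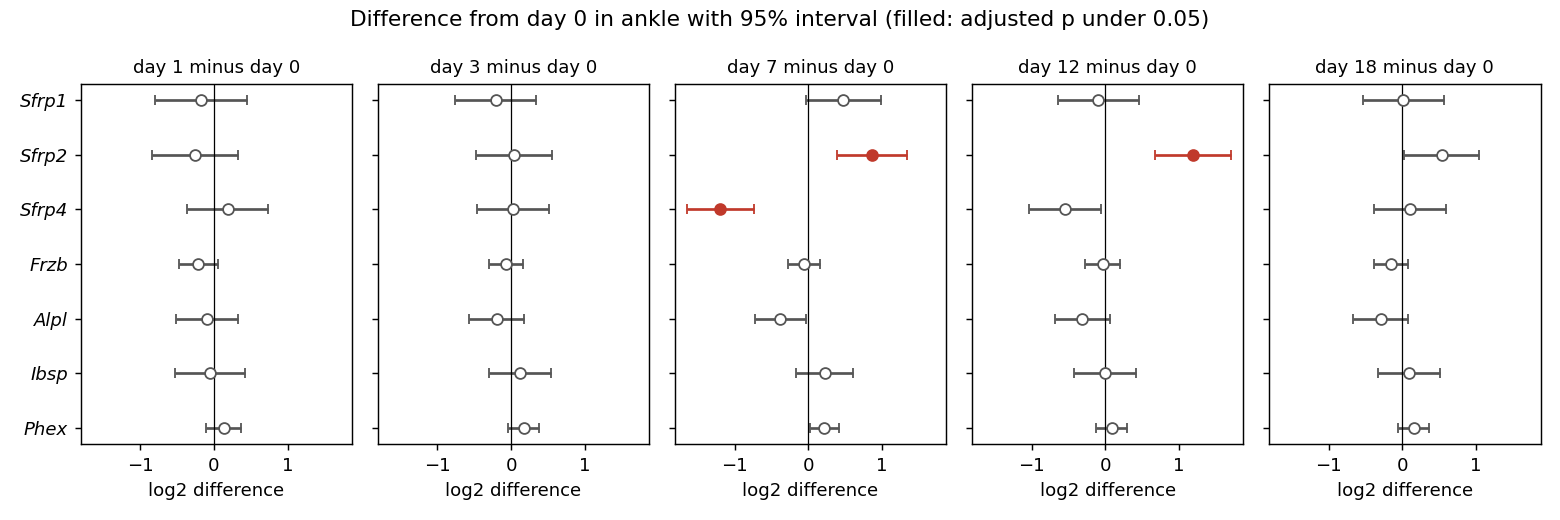
Log2 difference from day 0 in ankle (horizontal axis) for each of the 7 genes (rows) at days 1, 3, 7, 12 and 18, with the 95% interval of the limma fit as a bar; filled red points passed an adjusted p of 0.05. Sfrp4 is filled at day 7 (-1.19), and Sfrp2 at days 7 (0.86) and 12 (1.19).

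The early days gave no call among these genes. At day 1 the differences of the 7 genes ran from -0.26 for Sfrp2 to 0.19 for Sfrp4, and 0% of all genes passed (150 genes and 0 of the 7 at an unadjusted p under 0.05). At day 3 they ran from -0.21 for Sfrp1 to 0.17 for Phex, and 0.23% of all genes passed (711 genes and 0 of the 7 unadjusted). From day 1 through day 18 the median difference of the 7 genes was -0.09, 0.03, 0.22, -0.04 and 0.09 in turn, beside -0.03, -0.01, 0.00, -0.03 and 0.00 over all genes. At day 18, 1 of the 7, Sfrp2, had an unadjusted p under 0.05, against 971 of all genes.

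Sfrp2 and Sfrp4 read higher in ankle than in cells of the joint fluid. Against ankle at the same days (13 arrays each), fluid cells were lower in 5 of the 7 genes and higher in 0, where 38.1% of all genes differed. The labels do not say whether ankle and fluid samples came from the same mice, and the fit treats them as independent. The median difference of the 7 was -0.33 against -0.04 over all genes. Sfrp2 differed by -1.26 ± 0.11, fluid minus ankle (adjusted p = 1.65e-10), with fluid arrays at 5.34 to 5.97. Sfrp4 differed by -1.23 ± 0.11 (adjusted p = 1.43e-10), with fluid arrays at 6.22 to 7.08. Both fluid means over all days lay below the negative control level, though 6 of the 13 fluid arrays of Sfrp4 lay above it.

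Fluid minus ankle, Sfrp1 differed by -0.35 ± 0.12 (adjusted p = 0.0192), Frzb by -0.16 ± 0.06 (adjusted p = 0.0313) and Alpl by -0.33 ± 0.09 (adjusted p = 0.00336). All 3 were measured below the negative control level on both sides. With the beta-actin ratio added to the fit none of the 3 passed, with adjusted p of 0.607, 0.455 and 0.182. The Frzb call was lost as well after either other scaling (adjusted p = 0.109 after quantile normalization anew, 0.106 after median centring) and without any 1 of 8 arrays. These were ankle day 3 replicate 2, day 7 replicate 4 and day 12 replicate 3, and fluid day 3 replicate 1, day 7 replicates 2 and 3, and day 12 replicates 1 and 3, with adjusted p from 0.0512 to 0.0746. Ibsp differed by -0.05 ± 0.09 by its main probe set (adjusted p = 0.695) and by -1.32 ± 0.21 by the other (adjusted p = 5.5e-06). Phex differed by 0.02 ± 0.07 (adjusted p = 0.846).

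**Figure D4:**
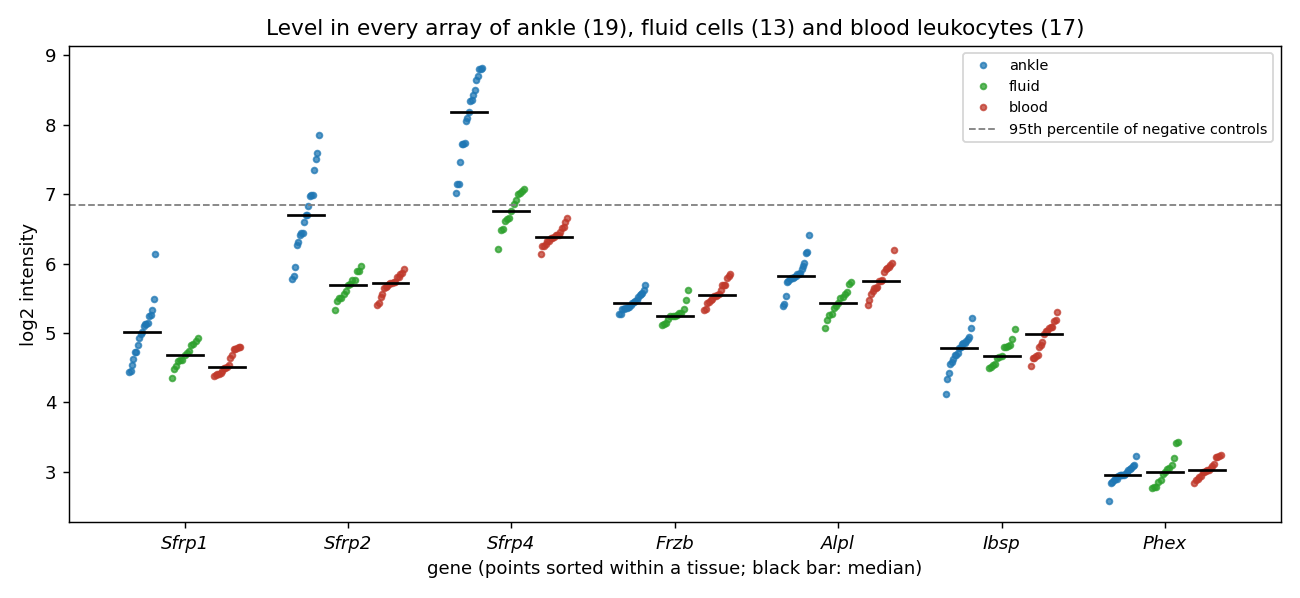
Log2 intensity (vertical axis) of the 7 genes in every array of ankle (19), fluid cells (13) and blood leukocytes (17), sorted within each tissue, with the median as a black bar and the 95th percentile of negative controls (6.85) dashed. Sfrp4 and Sfrp2 reach above the leukocyte range in ankle, whereas Frzb, Ibsp and Phex overlap between the tissues.

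Within fluid, Sfrp4 read 6.62, 6.22 and 6.49 at day 3, 6.92, 6.76, 6.50 and 6.65 at day 7, 7.00, 6.66 and 7.02 at day 12, and 6.86, 7.05 and 7.08 at day 18. The day 18 arrays lay above all of day 3, but the F test over days did not pass (adjusted p = 0.320). Fibroblast markers summed to 2109 to 3950 at day 3 and 11490 to 14789 at day 18 in the same fluid arrays, and their part in the Sfrp4 level was not tested. Over days, 0 of the 7 genes passed in fluid, where 2.62% of all genes did (1 of the 7, Sfrp4, at an unadjusted p under 0.05). In blood none passed either, and 0% of all genes did (506 genes and 1 of the 7, Alpl, unadjusted). Alpl in blood read 5.56, 5.40 and 5.48 at day 0 and 5.94 and 5.98 at day 18 (adjusted p = 0.693 over days).

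The rest of the pathway was counted at day 7 against the same 6.73% of genes called. Of 14 Wnt ligands measured, 0 rose and 1 fell, with a median difference of 0.00. That was Wnt11, which fell by 0.71 ± 0.18 (adjusted p = 0.0187). None of the 14 had an ankle mean above the negative control level. Of 13 receptors and coreceptors none passed (median 0.02), and the smallest p was that of Lrp6, which differed by 0.19 ± 0.14 (adjusted p = 0.541).

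Other Wnt inhibitors were thinly covered, with 4 measured of 16 listed names, of which Sostdc1 and Wise are the same gene. At day 7, 1 of the 4 fell (median -0.25). Apcdd1, a membrane inhibitor of Wnt, fell by 0.64 ± 0.18 (adjusted p = 0.0446), and 17 of 29 alternative fits kept that call. All its ankle means lay below the negative control level. Dkk2 differed by -0.996 ± 0.350 without passing (adjusted p = 0.105). Dkk3, a Dkk family protein whose action on Wnt is less settled, differed by 0.14 ± 0.24 at day 7 (adjusted p = 0.842) and rose at day 12 by 1.04 ± 0.25, or 2.06-fold (adjusted p = 0.0289). The day 12 call was kept in 22 of 30 alternative fits, with adjusted p up to 0.159 with the beta-actin ratio added. It was the only one of the 4 past the threshold at day 12.

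Of 11 transducers and transcription factors, 1 rose and 1 fell at day 7 (median -0.14). Csnk1a1, a kinase that marks beta-catenin for breakdown, rose by 0.73 ± 0.18, or 1.66-fold (adjusted p = 0.0178). Tcf7l1, a TCF factor that often represses, fell by 0.45 ± 0.13, or 1.37-fold (adjusted p = 0.0409). With the mean of each gene's 2 probe sets these differences were 0.65 (adjusted p = 0.163) and -0.23 (adjusted p = 0.254).

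Of 11 Wnt target genes, 2 rose and 0 fell at day 7 (median 0.06). Ccn4, a secreted matricellular protein also known as Wisp1, rose by 1.87 ± 0.16 (adjusted p = 8.80e-07), by 2.08 ± 0.17 at day 12 (adjusted p = 7.46e-07) and by 1.83 ± 0.17 at day 18 (adjusted p = 3.12e-06), from a day 0 mean of 4.51. It passed at these days in all 29 alternative fits. Cd44, a hyaluronan receptor that many leukocytes also carry, rose by 0.52 ± 0.13 at day 7 (adjusted p = 0.0204) and by 0.54 ± 0.14 at day 12 (adjusted p = 0.0416). With the mean of its 3 probe sets it did not pass at day 7 (0.24, adjusted p = 0.190) or day 12 (0.18, adjusted p = 0.460). All ankle means of Ccn4 and Cd44 lay below the negative control level.

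Of 25 other osteoblast and bone matrix genes, 5 rose and 0 fell at day 7, while the list's median was -0.08. The 5 were Tnc, Tnfsf11, Pdpn, Postn and Lox. Tnc, the matrix glycoprotein tenascin C, rose by 2.14 ± 0.21 (adjusted p = 3.80e-06), and Postn, the matrix protein periostin, by 1.89 ± 0.38, or 3.71-fold (adjusted p = 0.00461). Tnfsf11, the osteoclast-inducing cytokine RANKL, rose by 1.56 ± 0.21 (adjusted p = 0.000149), and Pdpn, which marks osteocytes and also lining synovial fibroblasts, by 0.77 ± 0.11 (adjusted p = 0.000224). Those 4 kept the call in all alternative fits at day 7. All ankle means of Tnfsf11 and Pdpn lay below the negative control level. With a floor on low values Tnfsf11 did not pass at day 12 (adjusted p = 0.0923) or day 18 (adjusted p = 0.343). Lox, a collagen cross-linking enzyme, rose by 1.52 ± 0.38 (adjusted p = 0.0220) and kept the call in 25 of 30. These 5 genes are made by several cell types, and the list also holds Col1a1, the main collagen gene of bone, which differed by -0.03 ± 0.31 (adjusted p = 0.980), and Sparc, osteonectin, which differed by -0.48 ± 0.22 (adjusted p = 0.229).

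Of 20 genes of BMP signalling, a second route to bone formation, 0 rose and 3 fell at day 7 (median -0.04). Bmp6 fell by 1.01 ± 0.14 (adjusted p = 0.000231), Bmp4 fell by 0.71 ± 0.13 (adjusted p = 0.00237) and Smad6, an intracellular inhibitor of the pathway, fell by 0.44 ± 0.13 (adjusted p = 0.0447). Bmp6 and Bmp4 kept the call in all 30 alternative fits at day 7, and Smad6 in 16 of 29. The ankle means of all 3 at day 7 were below the negative control level.

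**Figure D5:**
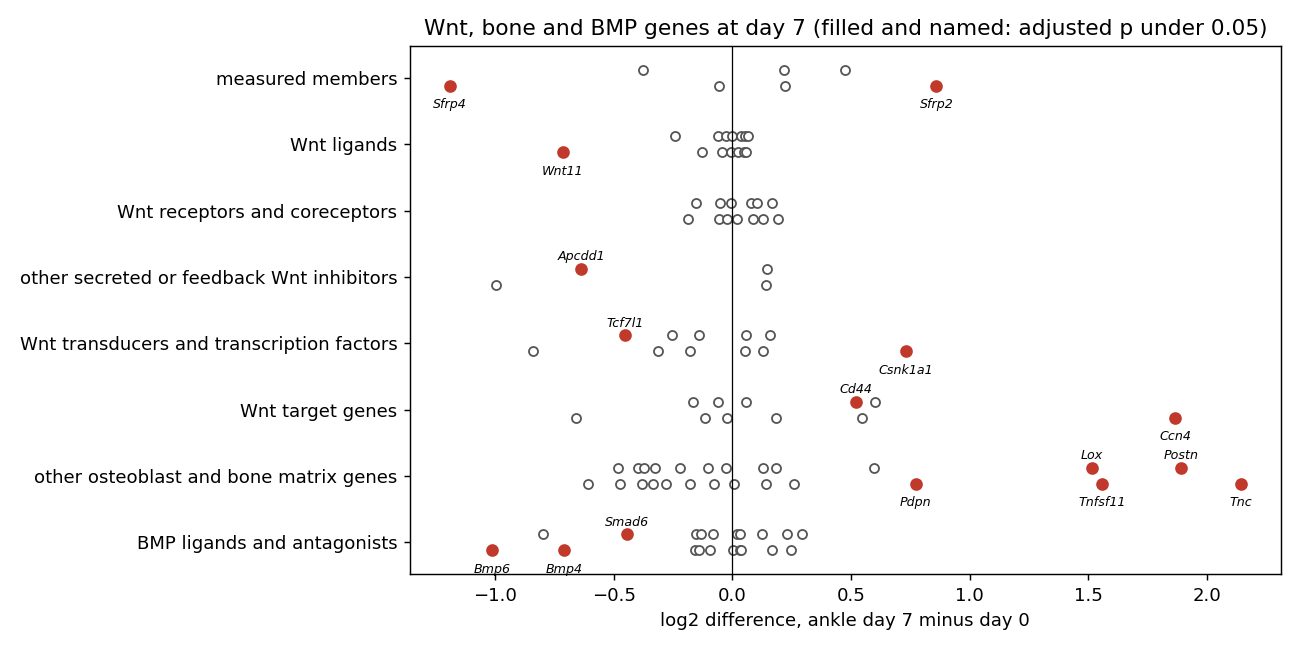
Log2 difference between ankle day 7 and day 0 (horizontal axis) for the 7 measured genes and the 7 related gene lists (rows), 1 point per gene; filled and named points passed an adjusted p of 0.05. Calls are few in each list, with Sfrp4 (-1.19) and Sfrp2 (0.86) on opposite sides. To the right lie 5 osteoblast or bone matrix genes, and to the left 3 BMP genes.

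At the later days the same lists gave fewer calls, as did all genes. At day 12, where 3.24% of all genes were called, 2 Wnt targets, 4 osteoblast or bone matrix genes and 1 inhibitor were higher. At that day 3 BMP genes were lower. At day 18, where 2.01% were called, 1 Wnt target and 3 osteoblast or bone matrix genes were higher and 2 BMP genes were lower. These lists gave 0 calls at day 1, at day 3 and between day 7 and day 18, where 0%, 0.23% and 0.0606% of all genes were called.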

How the data were processed

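Single-colour Affymetrix mouse arrays were made from 49 samples. The deposited values are linear intensity per probe set, obtained by the authors with RMA, per the submitters' processing notes, and the version and genome build are not given in the sources used here. RMA equalises array distributions and compresses low values. Of 12488 probe sets, 10833 had 1 symbol in the platform annotation, 396 had several, 1259 had none or were controls. A model of log2 values was fitted in R 4.3.3 with limma 3.58.1 (lmFit, eBayes with trend, 1 mean per tissue and day, all days of a tissue sharing the spread). Tests were two-sided, or F tests over days, adjusted by the Benjamini-Hochberg method over 8251 genes with a threshold of 0.05. Fluid against ankle is the mean of the differences at days 3, 7, 12 and 18. It came from a separate fit of the ankle and fluid arrays together, in which both tissues share the spread. The genes and lists were chosen with earlier results of these data known. Named list genes are up to 4 per list with the smallest p at day 7 among those passing, or the 1 with the smallest p. Members against their list's majority are named too. Lox, Dkk2, Dkk3, Col1a1, Sparc, Alas2, Hba-a1 and the tendon genes were added after their values were seen. The procedure was tested on simulated data. Alternatives covered scaling, a floor, a filter, probe sets, weights, covariates, a replicate block and leaving out arrays, and the other Ibsp probe set was added after its values were seen. No scan date or slide was given, and no scan batch was tested. The number of arrays limits precision.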

Additional observations from a re-analysis of the deposited data

Results flagged for a closer look

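One value stood apart from its group. The main probe set of Ibsp read 4.13 in ankle day 0 replicate 2, below the other 3 arrays of that day at 4.81 to 4.86, a gap of 0.928 of the group's range. Its description begins with another short name than the title gives, though every other label says day 0. By the other Ibsp probe set the same array read 5.56, the second highest of that day. It was the only flag among 21 combinations of gene and group tested, and chance flags about 1 in 20.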

How the results depend on the processing

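Of 1540 values computed under alternatives for the 7 genes, 0 reversed a called direction, 39 lost a call, 6 gained one and 65 changed sign without a call on either side. Counts of these genes past the threshold moved as follows. At day 7 (2 genes) the count was 1 without the arrays with high Alb and 1 with the beta-actin ratio as covariate, and 3 with array weights, where Alpl passed. At day 12 (1) it was 2 with array weights and 0 with the beta-actin covariate. At day 18 (0) it was 1 with array weights, and between day 7 and day 18 (1) it was 0 after median centring and 0 with the floor. The test over all ankle days (2) gave 1 without the arrays with high Alb. The tests over days in fluid (0) and in blood (0) each gave 3 with array weights, and fluid against ankle (5) gave 3 with the genes of lowest mean signal left out, which drops 4 of the 7, and 2 with the beta-actin covariate, and 6 with the mean of all probe sets or with the other Ibsp probe set. With 1 array left out, counts ran from 1 to 2 at day 7, 0 to 1 at day 12, 0 to 1 between days 7 and 18, and 4 to 5 for fluid against ankle. With the exception of the dropped genes, the cause was not tested.

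Ankle arrays of different days were compared after each gene's day mean was subtracted. Their deviations correlated over 0.1 in 26 of 41 same-numbered pairs (median 0.20) and in 22 of 108 differently numbered ones (median -0.11). Deviations within a day cancel by construction, so a positive median in the first kind of pair pulls the second down. Same-numbered ankle arrays thus deviated more alike on the whole, but not in every pair. Nothing in the labels says what a number marks, so the samples were not treated as paired. With the replicate block the counts were 2 at day 7, 1 at day 12 and 1 between days 7 and 18, as without it, while over all genes calls went from 555 to 917 at day 7, 267 to 500 at day 12, 166 to 413 at day 18, 5 to 14 between days 7 and 18, and 299 to 489 over ankle days. Calls over all genes at day 7 ran from 250 with the beta-actin covariate to 1274 with array weights, against 555 in the reported fit. At day 12 they ran from 95 to 2592 (267 reported) under the same settings, at day 18 from 56 without day 18 replicate 3 to 1540 with weights (166 reported), and over blood days from 0 to 3081 with weights (0 reported). The lowest and highest counts were 6 and 526 at day 3 (19 reported), 0 and 103 between days 7 and 18 (5), 155 and 1814 over ankle days (299), 134 and 2375 over fluid days (216) and 1434 and 4661 for fluid against ankle (3145), each highest count with array weights. Of 8251 genes, 4611 had no ankle mean above the negative control level, among them 5 of these 7, and changes in them may have gone unseen.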
